A study of Mus musculus with 9 samples.

Results

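The genes described here are 5 enzymes that cap selectin ligands, Fut7, Chst2, St3gal4, St3gal6 and Tpst2, and Cd44, a protein that carries such ligands. They were chosen by their role, as the probe sets whose RefSeq accession belongs to 1 of these mouse genes, and are 6 of the 909 genes named on the array. Each gene had 1 probe set of the 1246. The choice was made with earlier results of these data known. Shares of the whole array set beside the 6 are therefore a description and not a test. RNA of purified CD8 T cells with a transgenic T cell receptor, from female B10D2 mice, was hybridised to 9 single-colour Affymetrix GLYCOv4 arrays, a custom design for glycosylation genes, lectins, cytokines and their receptors. Deletion cells (3 arrays) had met their cognate antigen in vivo as a weak signal, anergy cells (3 arrays) had received a strong signal from it in vivo, and naive transgenic cells (3 arrays) were the control. All 3 groups carried the receptor transgene, and the labels name neither the receptor line nor the age of the mice. The labels give replicate numbers and do not say that the replicates were separate animals, so the p-values measure only how far these samples differ, possibly for technical reasons.

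Selectins are adhesion receptors that slow leukocytes in the blood flow by binding sialylated and fucosylated glycans. A ligand is built on a core 2 O-glycan that is extended by a lactosamine unit, capped with alpha-2,3-linked sialic acid (St3gal4 and St3gal6 in mice) and closed with fucose by Fut7. Chst2 adds sulfate to N-acetylglucosamine of the chain, and Tpst2 adds sulfate to tyrosines of the carrier protein, as P-selectin binding to PSGL-1 requires. CD44 binds hyaluronan, and it binds E-selectin when it carries the capped glycan. Activated T cells are known to gain selectin ligands and CD44, and the study asked whether glycosylation transcripts differ between T cells on the way to deletion and to anergy.

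The values are log2 expression from RMA, 1 per probe set and array, and precision is limited by the 9 arrays, with a standard error of 0.087 for the median probe set's difference. Array medians lay between 4.44 and 4.58. Of 13 T cell markers looked for, only Cd2 was named on the array. Its log2 values were 9.84, 9.82 and 10.38 in deletion cells, 9.33, 9.40 and 9.48 in anergy cells, and 11.68, 11.54 and 11.53 in naive cells. Cd2 was lower in both groups than in naive cells (-1.57 in deletion and -2.18 in anergy) and higher in deletion than in anergy (0.61, adjusted p = 0.039). Genes of the CD8 chains and of the CD3 complex were not among the named genes, so the CD8 identity of the cells could not be checked against its defining genes. Among markers of other cells, 10 of 15 macrophage and dendritic cell genes, both natural killer cell genes and 6 of 8 endothelial, stromal and platelet genes lay under the median of every array. So did 2 of 3 granulocyte and erythroid genes, but only 1 of 4 B cell genes. Il2ra, the only measured gene of the CD4 and regulatory T cell list, did not. Csf1r, Cd209a and Ly75, of the macrophage and dendritic cell list, lay above the median on every array. By definition a median has as many probe sets below it as above it. These counts therefore do not show that other cells were absent. Anergy replicate 3 stood apart, with a residual SD of 0.166 against 0.094 to 0.128 on the other 8 arrays.

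The stretch before the transcription start is shown for the members with the largest rises (Chst2, Cd44 and Fut7) and for St3gal6, whose level hardly moved. Each sequence is the 250 bases upstream of the first listed start, in RefSeq on GRCm38.p6, and capitals mark matches to the NFAT letters TGGAAA or their reverse complement TTTCCA. 
Chst2, chr9:95407271-95407520, minus strand: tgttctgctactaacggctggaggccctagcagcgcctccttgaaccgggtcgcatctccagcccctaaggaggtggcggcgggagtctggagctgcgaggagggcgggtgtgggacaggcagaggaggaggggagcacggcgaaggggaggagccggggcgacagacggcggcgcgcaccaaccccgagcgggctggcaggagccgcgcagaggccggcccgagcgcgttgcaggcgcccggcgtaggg
Cd44, chr2:102901666-102901915, minus strand: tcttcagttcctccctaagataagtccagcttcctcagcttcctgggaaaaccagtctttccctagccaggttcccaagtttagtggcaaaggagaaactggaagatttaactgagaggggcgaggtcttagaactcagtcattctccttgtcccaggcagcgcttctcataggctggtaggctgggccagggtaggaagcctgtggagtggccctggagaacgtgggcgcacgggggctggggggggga
Fut7, chr2:25422992-25423241, plus strand: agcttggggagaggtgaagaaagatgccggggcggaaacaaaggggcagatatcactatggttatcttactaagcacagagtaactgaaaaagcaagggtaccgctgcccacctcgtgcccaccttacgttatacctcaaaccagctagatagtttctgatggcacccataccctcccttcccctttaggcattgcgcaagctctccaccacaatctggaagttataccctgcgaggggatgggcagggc
St3gal6, chr16:58524254-58524503, minus strand: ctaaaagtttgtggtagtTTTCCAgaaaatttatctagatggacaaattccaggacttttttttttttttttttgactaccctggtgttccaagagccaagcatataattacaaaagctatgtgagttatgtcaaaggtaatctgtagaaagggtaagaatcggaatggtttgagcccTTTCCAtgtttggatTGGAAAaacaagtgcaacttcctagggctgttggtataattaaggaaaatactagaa
No match to the T-box letters AGGTGT, the AP-1 letters TGANTCA, the NFAT letters TGGAAA or the STAT letters TTCNNNGAA, on either strand, was found in the windows of Chst2, Cd44 and Fut7. Of all 32851 upstream windows in the table, 11.8% held the T-box letters, 6.75% the AP-1 letters, 18.6% the NFAT letters and 7.02% the STAT letters. The first window of St3gal6 held the NFAT letters 3 times. The windows of St3gal4 and of the 3 listed starts of Tpst2, not shown, held no match to the T-box, AP-1, NFAT or STAT letters. Base composition differed widely, with 72.8% G and C upstream of Chst2, 56.4% upstream of Cd44, 52.4% upstream of Fut7 and 34.8% upstream of St3gal6, against a median of 52.4% over all windows. RefSeq lists 2 starts for Fut7 and for St3gal6. The window of the second start held 56.4% G and C for Fut7, with no match, and 64.4% for St3gal6, with 1 match to the NFAT letters.

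Deletion cells were higher than naive cells in 4 of the 6 genes (Chst2, Cd44, Fut7 and St3gal4), lower in Tpst2, and did not pass for St3gal6. Over the whole array 8.51% of probe sets were called higher and 10.5% lower in deletion (19.0% in all; limma, adjusted p under 0.05). Anergy cells were higher than naive cells in Chst2, Cd44 and Fut7 and lower in Tpst2, where 10.8% of all probe sets were called higher and 16.1% lower (26.8% in all). Between deletion and anergy only St3gal4 passed, 1 of 6, and it was higher in deletion. Of all probe sets 2.09% were called higher and 1.28% lower there (3.37% in all). Both comparisons with naive cells use the same 3 naive arrays, so their values stand side by side here and are not independent. In bulk RNA a smaller share of cells that express a gene and less RNA of it per cell cannot be told apart.

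**Figure D1:**
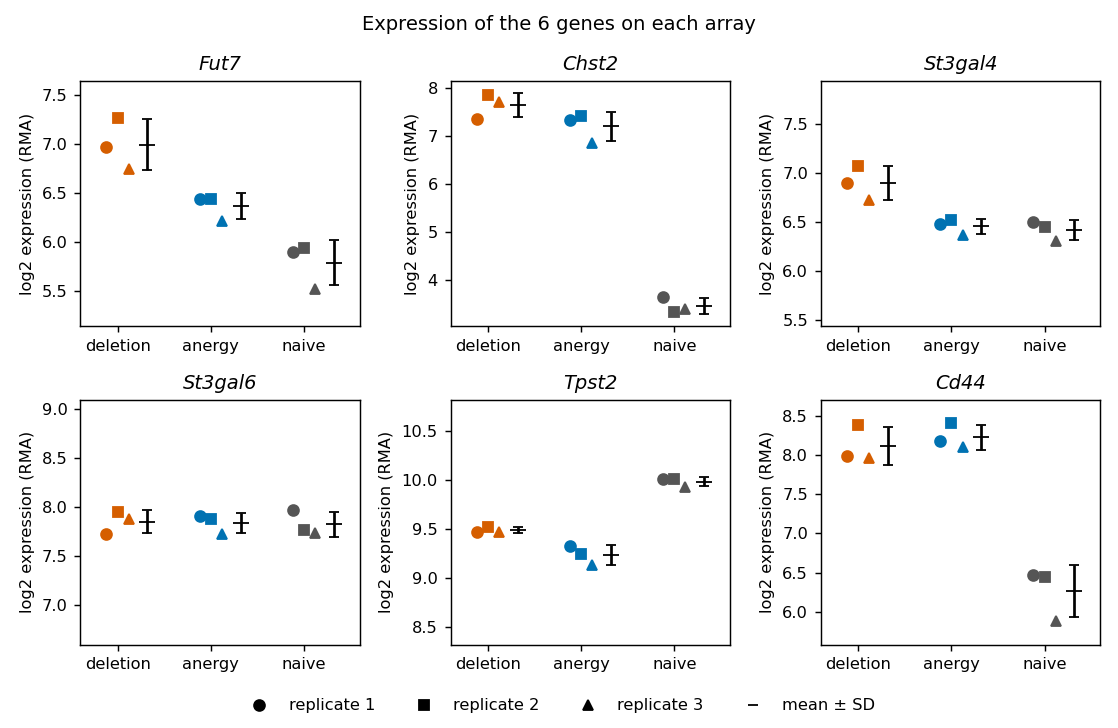
Log2 expression (RMA, vertical axes, each over its own range) of the 6 genes on the 9 arrays, by group. Symbols stand for replicate numbers and bars for the mean ± SD of 3 arrays. Chst2 and Cd44 lie far above the naive arrays in both groups, Fut7 falls into 3 steps, St3gal4 is high on the deletion arrays, St3gal6 is level and Tpst2 is highest in naive cells.

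Chst2, the N-acetylglucosamine 6-O-sulfotransferase, had the widest change of the 6 genes. Its log2 values were 7.36, 7.84 and 7.71 on deletion arrays 1 to 3, 7.33, 7.42 and 6.85 on anergy arrays 1 to 3, and 3.66, 3.35 and 3.41 on naive arrays 1 to 3. Every deletion and anergy array lay more than 3 log2 units above every naive array. Deletion cells were 17.9-fold higher than naive cells (95% limits 13.8 to 23.2; means 7.64 ± 0.25 and 3.47 ± 0.16, SD, n = 3 each; adjusted p = 5.4e-08), and ranked 5th among all probe sets by its rise. Anergy cells were 13.2-fold higher (10.2 to 17.1; mean 7.20 ± 0.31; adjusted p = 9.6e-08), which ranked 8th. In deletion cells 81.4% of all probe sets had a lower mean than Chst2, in anergy cells 78.0% and in naive cells 31.1%. No detection call was used, and values this low in naive cells may include background, so the fold change may understate the real one. Deletion exceeded anergy by 0.44 (95% limits 0.06 to 0.81) without passing (adjusted p = 0.228), and the arrays of the 2 groups overlapped. That difference was 0.26 without anergy replicate 3 and 0.24 with array weights.

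Cd44, the hyaluronan receptor and selectin ligand carrier, separated antigen-exposed cells from naive cells and gave no call between the exposed groups. The log2 values were 7.99, 8.39 and 7.96 on the deletion arrays, 8.18, 8.41 and 8.10 on the anergy arrays, and 6.47, 6.44 and 5.88 on the naive arrays. The deletion and anergy values overlapped, and both lay above all naive values. The level was 3.61-fold higher in deletion than in naive cells (95% limits 2.76 to 4.70; adjusted p = 2.9e-05) and 3.91-fold higher in anergy than in naive cells (3.00 to 5.10; adjusted p = 1.5e-05). Deletion minus anergy was -0.12 (95% limits -0.50 to 0.27; adjusted p = 0.795), an interval that spans 0. Single arrays moved it by over 1.5 times: it was -0.255 without deletion replicate 2, -0.18 without anergy replicate 3, -0.055 without deletion replicate 1, -0.04 without deletion replicate 3 and -0.03 without anergy replicate 2. After quantile normalization it was -0.23.

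Fut7, the alpha-1,3-fucosyltransferase that completes sialyl Lewis X on T cells, was ordered deletion, anergy, naive with no overlap between any 2 groups. Its log2 values were 6.97, 7.26 and 6.74 in deletion cells, 6.44, 6.44 and 6.21 in anergy cells, and 5.90, 5.94 and 5.52 in naive cells. Deletion exceeded naive cells 2.30-fold (95% limits 1.83 to 2.90; means 6.99 ± 0.26 and 5.79 ± 0.23, SD; adjusted p = 0.000229). Anergy exceeded naive cells 1.49-fold (1.19 to 1.88; mean 6.36 ± 0.13; adjusted p = 0.0149). This second call was lost without anergy replicate 1 (adjusted p = 0.0533), anergy replicate 2 (0.0563) or naive replicate 3 (0.0568). The step between deletion and anergy was 0.63 (95% limits 0.30 to 0.96), or 1.54-fold, and missed the threshold (adjusted p = 0.0523). With the replicate number as a block the same difference passed (adjusted p = 0.00422), as it did without deletion replicate 3 (0.0337) or naive replicate 3 (0.0344).

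The sialyltransferases St3gal4 and St3gal6, which both can add the alpha-2,3-linked sialic acid of selectin ligands, gave different patterns. St3gal4 had log2 values of 6.90, 7.07 and 6.73 in deletion cells, 6.48, 6.52 and 6.37 in anergy cells, and 6.50, 6.45 and 6.31 in naive cells. All deletion arrays lay above all others, and the anergy and naive arrays overlapped. St3gal4 was 1.39-fold higher in deletion than in naive cells (95% limits 1.21 to 1.61; adjusted p = 0.00444) and 1.36-fold higher in deletion than in anergy cells (1.18 to 1.57; adjusted p = 0.0315). Anergy minus naive was 0.04 (95% limits -0.17 to 0.25; adjusted p = 0.825). The call between deletion and anergy held in 6 of 17 other settings and was lost without deletion replicate 1 (adjusted p = 0.0851), deletion replicate 2 (0.117), any 1 anergy array (0.0587, 0.0744 and 0.0952 for replicates 1 to 3), naive replicate 1 (0.0517) or naive replicate 2 (0.0574). The probe set of St3gal4 has the suffix s, which marks probes that can bind more than 1 transcript.

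St3gal6 gave 7.72, 7.95 and 7.88 in deletion cells, 7.91, 7.88 and 7.72 in anergy cells, and 7.97, 7.76 and 7.73 in naive cells. The 3 groups overlapped fully, with means of 7.85 ± 0.12, 7.84 ± 0.10 and 7.82 ± 0.13 (SD). The differences were 0.03 for deletion against naive (95% limits -0.17 to 0.23), 0.02 for anergy against naive (-0.19 to 0.22) and 0.01 for deletion against anergy (-0.19 to 0.22). These intervals leave room for small changes in either direction. Among the other members of this family, St3gal1, which sialylates core 1 O-glycans, was lower in anergy than in naive cells (-0.77 ± 0.11, SE; adjusted p = 0.000608), and its differences in deletion of -0.28 against naive and 0.48 against anergy did not pass (adjusted p = 0.139 and 0.054), though both passed without anergy replicate 1 (0.0231 and 0.00337). St3gal3 fell in both, by 0.60 in deletion and by 0.62 in anergy (adjusted p = 0.000245 and 0.000158). St3gal5, which makes ganglioside GM3, rose in anergy (0.52 ± 0.10, SE; adjusted p = 0.00268) and measured 0.29 in deletion without passing (adjusted p = 0.0719), but passed without naive replicate 2 (0.00895) and with the replicate block (0.0271).

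Tpst2, a tyrosylprotein sulfotransferase, was the only one of the 6 genes that fell. Its log2 values were 9.47, 9.52 and 9.47 in deletion cells, 9.33, 9.24 and 9.13 in anergy cells, and 10.01, 10.01 and 9.93 in naive cells. No 2 groups overlapped, and the deletion arrays lay between the other groups. Compared with naive cells the level was 1.41-fold lower in deletion (95% limits 1.27 to 1.56; adjusted p = 0.00039) and 1.68-fold lower in anergy (1.52 to 1.86; adjusted p = 1.5e-05). Deletion exceeded anergy by 0.25 (95% limits 0.11 to 0.40) and missed the threshold (adjusted p = 0.0703). That difference was 0.09 after quantile normalization, which moved it by over 1.5 times (adjusted p = 0.385). It passed with array weights (0.22, adjusted p = 0.0403) and without anergy replicate 1 (0.30, adjusted p = 0.0499).

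**Figure D2:**
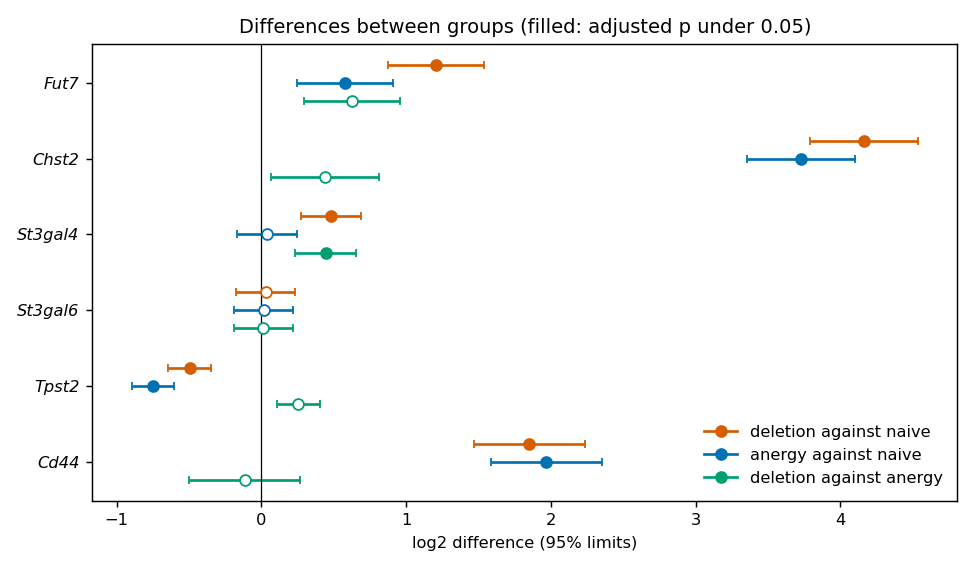
Log2 differences between groups (horizontal axis) with their 95% limits from limma, for each gene and comparison. Filled points passed at an adjusted p under 0.05. Chst2 at 4.16 and 3.73 and Cd44 at 1.85 and 1.97 lead both comparisons with naive cells, Tpst2 is negative in both, and only St3gal4 is filled for deletion against anergy.

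In the direct comparison of deletion with anergy, 5 of the 6 differences were positive, with a median of 0.35 against -0.01 over all probe sets. Without deletion replicate 2 the count was 4 of 6 (median 0.29), as it was without deletion replicate 3 (0.33), without anergy replicate 3 (0.23), with array weights (0.23), after quantile normalization (0.22) and without both deletion replicate 2 and anergy replicate 3 (0.17). In each of these settings St3gal6 turned negative. Groups did not overlap for Fut7, St3gal4 and Tpst2, 3 of 6, as was the case for 16.6% of all probe sets. For comparison with naive cells the groups did not overlap for 5 of 6 genes in deletion (31.5% of all probe sets) and 4 of 6 in anergy (33.9%). The median difference of the 6 genes was 0.84 in deletion and 0.31 in anergy, against -0.02 and 0.01 over all probe sets.

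Single arrays moved with these differences. Deletion replicate 2 held the highest value of its group for all 6 genes, as for 27.9% of all probe sets and 48.7% of the 384 probe sets at least as bright as the dimmest of the 6. Anergy replicate 3 held the lowest value of its group for all 6 genes, as for 38.4% of all probe sets and 84.9% of those 384. Naive replicate 3 was lowest for 5 of the 6, against 31.4% of all probe sets and 54.7% of the bright ones. With deletion replicate 2 and anergy replicate 3 both left out, a choice made after seeing these values, deletion minus anergy was 0.415 for Fut7 (adjusted p = 0.315), 0.32 for St3gal4 (adjusted p = 0.181) and 0.185 for Tpst2 (adjusted p = 0.253). In the same setting it was 0.16 for Chst2, -0.095 for St3gal6 and -0.32 for Cd44, none of which passed.

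**Figure D3:**
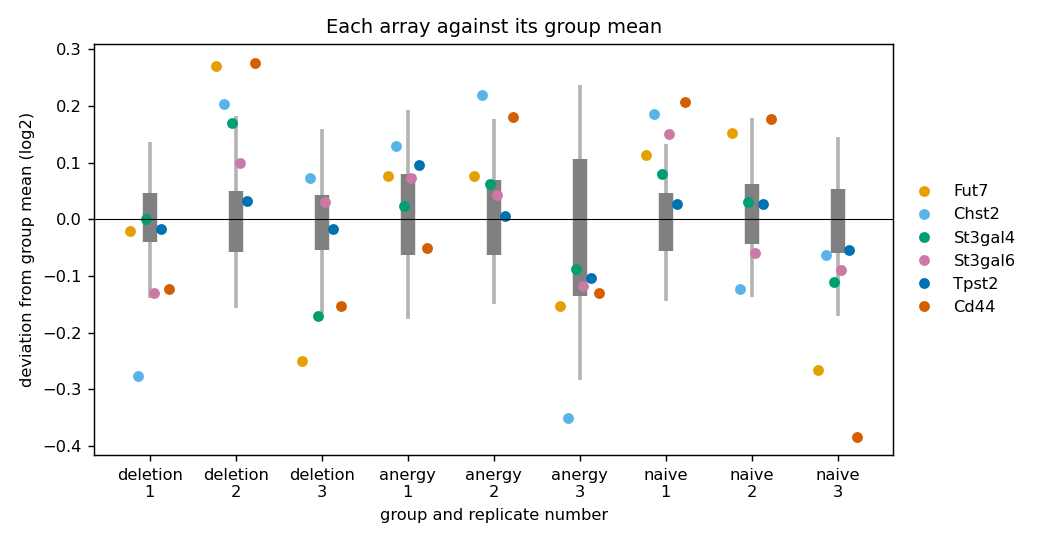
Deviation of each array from the mean of its group (log2, vertical axis) for the 6 genes (points), over the middle 50% (thick bars) and middle 90% (thin bars) of all probe sets. Deletion replicate 2 has all 6 points above 0 and anergy replicate 3 all 6 below 0.

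**Figure D4:**
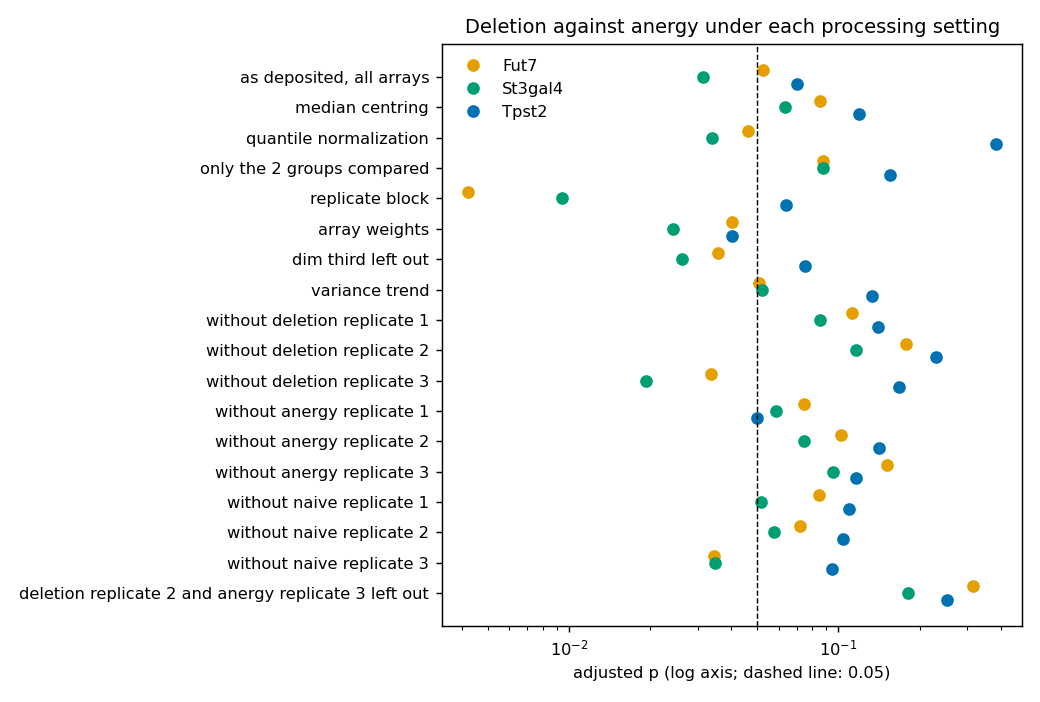
Adjusted p (horizontal log axis) for deletion against anergy under the deposited scaling and 17 other settings, for Fut7, St3gal4 and Tpst2. The dashed line is the threshold of 0.05. St3gal4 lies left of it in 6 of the 17, Fut7 in 6 and Tpst2 in 2.

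The steps that precede the caps were read from lists of pathway genes, which held 69 measured genes with the 6. Without the 6 members, 63 genes were left: 6 rose, 6 fell and 51 did not pass in deletion against naive, a share of 19.0% beside 19.0% over the array. In anergy against naive 8 rose, 9 fell and 46 did not pass (27.0% beside 26.8%). Between deletion and anergy 2 were higher, 0 were lower and 61 did not pass (3.17% beside 3.37%). These shares lay near those of the array as a whole.

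In the scaffold list, 4 of 14 genes rose and 2 fell in deletion, and 3 rose and 2 fell in anergy. Gcnt1, which branches core 1 to core 2, rose by 2.17 ± 0.15 in deletion and by 2.15 ± 0.15 in anergy (SE; adjusted p = 2.4e-06 and 2.1e-06). The means of this probe set were 4.85, 4.83 and 2.68 in deletion, anergy and naive cells. Its naive level lay under the array medians of 4.44 to 4.58, and it also has the suffix s. A different probe set of Gcnt1, with means of 3.30, 3.36 and 3.11 in deletion, anergy and naive cells, gave 0.19 and 0.26 and did not pass. B4galt5, a galactosyltransferase, rose by 0.96 in deletion and 1.30 in anergy, and B3gnt2, which extends lactosamine chains, by 0.73 and 0.54. B4galt1 fell by 0.62 in deletion and by 0.74 in anergy, and B4galt3 fell by 0.34 and by 0.44. B4galt4 passed in deletion (0.44 ± 0.14, SE; adjusted p = 0.0494) and measured 0.16 in anergy. It was dim, with means of 3.92, 3.64 and 3.48 in deletion, anergy and naive cells, under the median of every array. Its call held in 3 of 17 other settings and was lost when any 1 array other than deletion replicate 1 was left out (adjusted p 0.0538 to 0.178).

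Supply of the activated sugars and sulfate was measured by several genes. Gmds, the first enzyme of GDP-fucose synthesis, rose by 0.85 ± 0.14 in deletion and 1.17 ± 0.14 in anergy (SE; adjusted p = 0.00152 and 0.00014), and Slc35c1, the Golgi transporter of GDP-fucose, fell by 0.48 in deletion (adjusted p = 0.0523 without naive replicate 2) and by 0.49 in anergy. The other 3 measured genes of that list did not pass. Nans, a sialic acid synthase, rose by 0.67 in deletion and by 0.78 in anergy, the only 1 of 4 genes of CMP-sialic acid supply to pass. Slc35b3, a Golgi transporter of the sulfate donor, fell by 0.69 ± 0.13 in anergy (SE; adjusted p = 0.00272), measured -0.02 in deletion, and was 1.60-fold higher in deletion than in anergy (adjusted p = 0.023), a call lost without deletion replicate 1 (0.0655), 2 (0.0981) or 3 (0.0563). Papss1, which makes the sulfate donor, did not pass in any comparison (deletion minus anergy 0.35, adjusted p = 0.0858).

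**Figure D5:**
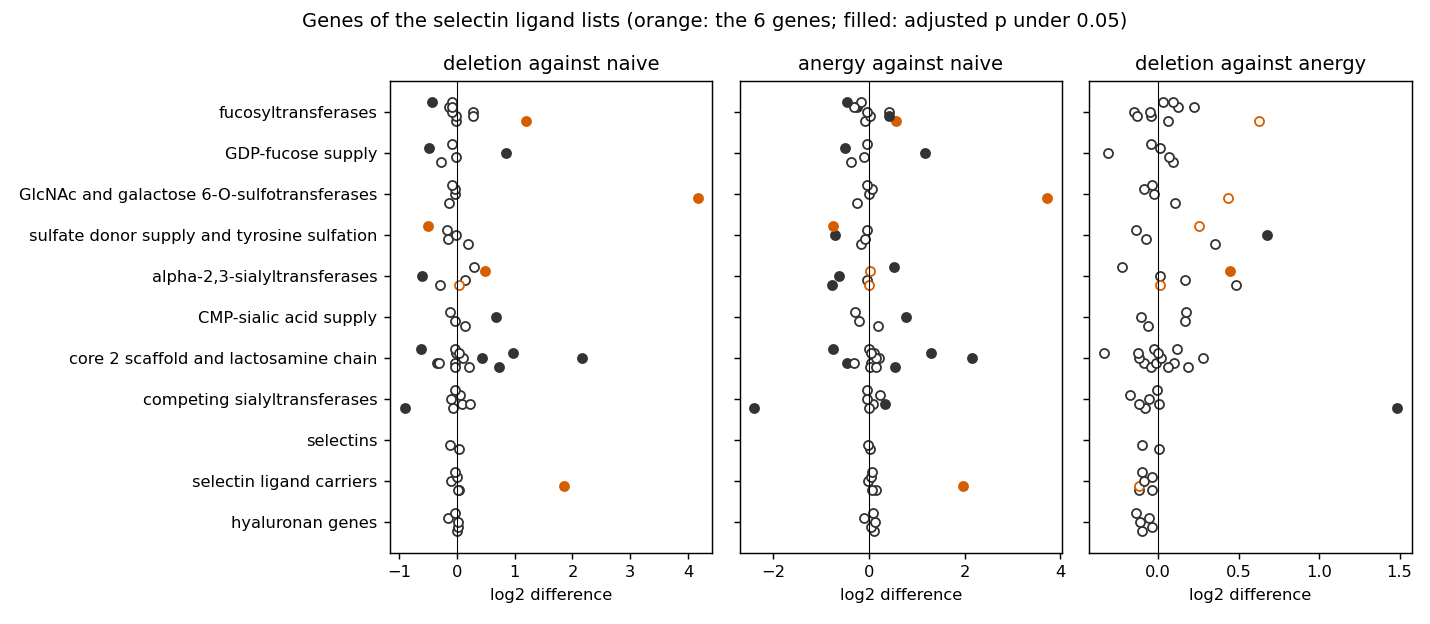
Log2 differences (horizontal axes, each panel on its own scale) of the 69 measured genes by list, for the 3 comparisons. Orange points are the 6 genes and filled points passed at an adjusted p under 0.05. Chst2 stands at the right end of both panels against naive cells, and St6gal1 at 1.48 stands at the right end for deletion against anergy.

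Within the enzyme families, Fut7 was the only 1 of 10 measured fucosyltransferases to rise in deletion, while Pofut2, which puts fucose on thrombospondin repeats, fell (-0.42 ± 0.08, SE; adjusted p = 0.0045). Fut1, Fut2, Fut4, Fut9 and Fut10 were dim, with group means of 2.24 to 3.77, under the median of every array. In anergy Fut8, which adds the core fucose of N-glycans, rose beside Fut7 (0.42, adjusted p = 0.00936), while it measured 0.29 in deletion (adjusted p = 0.0757) and -0.13 in deletion against anergy (adjusted p = 0.571). In anergy Pofut2 (-0.45) and Fut2 (-0.25) fell. A different probe set of Fut2 gave -0.22 in anergy against naive and did not pass in limma (adjusted p = 0.189). The call of Fut2 was lost without anergy replicate 1 (adjusted p = 0.0694) or 2 (0.052), or naive replicate 1 (0.0826) or 2 (0.0671). Chst2 was the only 1 of 5 measured 6-O-sulfotransferases of N-acetylglucosamine and galactose to pass against naive cells. Its relative Chst1 gave -0.14 in deletion and -0.25 in anergy without passing, though the anergy value passed after median centring (adjusted p = 0.0432) and quantile normalization (0.0353) and without anergy replicate 3 (0.0368). Chst4, Tpst1, Fut4, St3gal2 and Selplg, the gene of PSGL-1, passed in no comparison, with differences from naive cells between -0.17 and 0.14. Chst4, Chst5, Chst7 and Fut4 had group means of 3.31 to 4.26, under the array medians of 4.44 to 4.58. Selplg read 5.27 on every deletion array. No detection value was used, so whether these probe sets carried signal was not tested.

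St6gal1 caps the lactosamine ends that St3gal4 and St3gal6 also use, with sialic acid in alpha-2,6 linkage, and it fell in both groups. Its log2 values were 9.86, 10.08 and 10.07 in deletion cells, 8.77, 8.63 and 8.16 in anergy cells, and 10.86, 11.05 and 10.80 in naive cells. It fell by 0.90 in deletion and by 2.38 in anergy (adjusted p = 0.00147 and 9.3e-07), and deletion exceeded anergy by 1.48 ± 0.15 (SE; adjusted p = 0.000368). No 2 groups overlapped. St6galnac6, which can act on gangliosides, rose in anergy (0.34, adjusted p = 0.0132; 0.051 without anergy replicate 2 and 0.0566 without naive replicate 2), and the other measured genes of that list did not pass. Sele and Selp, and the 5 measured hyaluronan genes, did not pass in any comparison.

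The genes most like each member were ranked by the Pearson correlation of log2 values over the 9 arrays, among 908 genes with 1 probe set each. The 9 arrays fall into 3 groups, so a high value mostly restates the group means, and it is given as a description. Closest to Fut7 was Chst3, a chondroitin sulfotransferase (r = 0.979; group means 6.89, 5.97 and 4.63 in deletion, anergy and naive cells), followed by Dhrs1 and Cd83, and 14 genes exceeded 0.9. For Chst2 the closest was Xcl1, a chemokine (r = 0.992), then Psen2 and Mrpl27. Cd44 was nearest to the cell cycle kinase subunits Cks2 (r = 0.993) and Cks1b (r = 0.987) and to Hmgn2. Tpst2 was nearest to Xylt2, Tgfbr2 and Hdac5 (r = 0.990 to 0.991), and 84 genes exceeded 0.9. St3gal4 had only 4 such genes, led by the sialidase Neu3 (r = 0.921), Il10ra and Dpm2. St3gal6 had none, and its nearest was Ccl11 (r = 0.856), whose group means ran from 2.91 to 2.98.

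Some markers of other cells moved beside these results. Of 4 measured B cell markers, Cd22 was higher (1.17 in deletion and 0.98 in anergy) and Cd72 lower (-1.56 and -1.64) than in naive cells, and Cxcr5 was higher in deletion (0.64). The summed linear level of the 4 was 404 to 574 in deletion, 376 to 433 in anergy and 609.5 to 680 in naive arrays. For the 15 macrophage and dendritic cell markers it was 251 to 290 in deletion, 259 to 275 in anergy and 297 to 306 in naive arrays. Ly75 was lower in both groups (-0.60 in deletion and -0.65 in anergy), and Cx3cr1 was higher in anergy (0.44). Siglecf, of 3 granulocyte and erythroid markers, was higher in both (0.33 and 0.39). Siglecf was dim, with means of 2.64, 2.70 and 2.31 in deletion, anergy and naive cells, under the median of every array. Neither of the 2 natural killer cell markers passed. Between deletion and anergy no marker of B cells, macrophages and dendritic cells, natural killer cells or granulocytes passed in limma. Pecam1 was higher (0.72) and Il2ra lower (-1.05) in deletion than in anergy, and both genes are also known from T cells. Against naive cells Il2ra was called higher in anergy (1.16), and its difference of 0.11 in deletion did not pass. The summed level of the 8 endothelial, stromal and platelet markers was 556 to 618 in deletion, 363 to 426 in anergy and 451 to 479 in naive arrays. Pecam1 was the brightest of the 8, with means of 8.97, 8.25 and 8.54 in deletion, anergy and naive cells, and this sum mostly follows it. In naive cells Cd72 (mean 8.87) and Ly75 (6.65) were the brightest of the B cell and the macrophage and dendritic cell lists, so those sums also lean on 1 gene. The part of other cells in the results was not tested.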

How the data were processed

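RNA of 9 samples was measured on single-colour Affymetrix arrays. The deposited values are log2 expression, made by the authors with RMA per the submitters' processing notes; the RMA version and any filter are not stated in the labels. Values (1.67 to 13.86) were used as deposited, with no filter. Probe sets were named by their RefSeq accession through a RefSeq table of GRCm38.p6, used for names and promoter sequences; 963 of 1246 (77.3%) matched 1 gene. Where a gene had several probe sets, that of highest mean level stood for it.

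Three-group fits over all 9 arrays used limma 3.58.1 in R 4.3.3 (lmFit, eBayes; 6 residual and 3.65 prior degrees of freedom), two-sided, with Benjamini-Hochberg adjustment over 1246 probe sets and a threshold of 0.05. The fit was checked on simulated data with independent noise of the same spread on every array. Anergy replicate 3 had a wider spread than the other arrays, so the check does not cover that feature of the data. Members and lists were chosen with earlier results of these data known. The text names the 6 members, list genes that passed, their family members and the 3 genes most like each member. Deviations of deletion and anergy arrays of the same number had r = 0.195, 0.270 and 0.280, so the blocked value is given where it changes a call in that comparison. The labels do not say what a number marks. Arrays of unlike number were not compared, so a pairing was not established. Alternatives covered scaling, arrays in the fit, the block, array weights, a filter on dim probe sets, the variance prior and each array left out. Of the listed genes, 1 is not reported here.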

Additional observations from a re-analysis of the deposited data

Results flagged for a closer look

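By the direct limma test of deletion against anergy, 3 of the 69 measured pathway genes differed between these groups. This share of 4.35% lay near the 3.37% of all probe sets. Of the marker genes, Cd2 and Pecam1 (higher in deletion than in anergy) and Il2ra (higher in anergy than in deletion) passed as well. St6gal1 showed a log2 difference of 1.48 ± 0.15 (SE; adjusted p = 0.000368), with all 3 deletion arrays above all 3 anergy arrays. Slc35b3 differed by 0.68 ± 0.13 (adjusted p = 0.023) and St3gal4 by 0.44 ± 0.09 (adjusted p = 0.0315), again with no overlap between the arrays. The same lack of overlap was found for 16.6% of all probe sets. The difference of St6gal1 passed in all 17 other settings, that of Slc35b3 in 12 and that of St3gal4 in 6. Groups of 3 arrays were not tested for single outlying values.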

How the results depend on the processing

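All calls of Chst2, Cd44 and Tpst2 against naive cells, and those of Fut7 and St3gal4 in deletion against naive, held in all 17 other settings. The number of probe sets called between deletion and anergy, 42 (26 higher, 16 lower), became 26 (13 higher) after median centring, 70 (38 lower) after quantile normalization, 21 (8 higher) with only the 2 groups in the fit, 75 (44 higher, 31 lower) with array weights and 25 (9 higher) without deletion replicate 2 and anergy replicate 3, an alternative chosen after seeing the data. The split of 26 against 16 became 32 against 38 with quantile normalization, and 13 against 13 with median centring. Leaving out 1 array gave 20 (without deletion replicate 2) to 44 calls, of them 8 to 30 higher and 12 to 19 lower; the total was 27 without deletion replicate 3 and 28 without anergy replicate 2, and the higher count was 14 and 15 there and 17 without anergy replicate 3. Fut7 in deletion against anergy passed after quantile normalization (0.55), with the replicate block (0.63), without the dimmest probe sets (0.63) and with array weights (0.55), and in 2 omissions (0.49 to 0.75 over all omissions). Fut7 in anergy against naive lost its call in 3 omissions (0.44 to 0.65 over all). St3gal4 in deletion against anergy was lost after median centring (0.48, adjusted p = 0.0632), with only the 2 groups (0.44), with a variance trend (0.44, adjusted p = 0.0521), without both named arrays (0.315) and in 7 omissions (0.36 to 0.53 over all). Tpst2 in that comparison passed with array weights (0.22) and without anergy replicate 1 (0.20 to 0.30 over all omissions). The cause of these shifts was not tested.

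Values near 0 that never passed changed sign. St3gal6 in deletion against naive gave -0.0061 with array weights, -0.02 without both named arrays and -0.02 to 0.105 over the omissions, negative in 2. In anergy against naive it gave -0.03 after median centring and -0.028 to 0.092 over the omissions, negative in 4. In deletion against anergy it gave -0.030 after quantile normalization, -0.055 with array weights, -0.095 without both named arrays and -0.045 to 0.078 over the omissions, negative in 3. Quantile normalization moved some values against naive cells upward, to 0.15 in deletion and 0.18 in anergy for St3gal6 and to 0.14 in anergy for St3gal4, and none passed. St3gal4 in anergy against naive gave -0.01 after median centring and -0.018 to 0.08 over the omissions, and Chst1 in deletion against anergy -0.017 to 0.19. Against naive cells same-numbered arrays gave r of both signs, from -0.154 to 0.274. The replicate block gave 258 calls instead of 237 in deletion and 346 instead of 334 in anergy, and changed no other call of the 6 genes. The mean over several probe sets of a member was not run, since each member has 1. No detection value was used, so a level near the lowest values has no test against background.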
